A study of Homo sapiens with 6 samples.

Results

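The CD3 and zeta chain genes CD3E, CD3D, CD3G and CD247 encode the signalling subunits of the T-cell receptor, and the acetylation of histone H3 at lysine 27 (H3K27ac), found at promoters and enhancers in use, was read at them from peak lists of 6T-CEM and Jurkat cells. Both lines come from human T-cell leukaemias. Members were the peaks over the bodies of the 4 genes or within 50 kb of them, with each peak of the shared CD3 locus counted once. They came to 46 of 35154 peaks in 6T-CEM (1 library), 25 of 16159 in Jurkat replicate 1 and 45 of 32097 in Jurkat replicate 2, or 116 of 83410 in all. The 6 samples of the series also include 3 IgG controls, which were not analysed here. The title names GNE-987, a BET bromodomain inhibitor, and the series description a 10 nM treatment for 24 h by CUT&Tag, but no sample is labelled as treated or untreated, so any library may come from either. The labelled protocol describes sonicated nuclei and an antibody pull-down, which is not a CUT&Tag step, so the assay behind the peaks is uncertain.

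The T-cell receptor has short cytoplasmic tails of its own and signals through its partners. CD3 epsilon pairs with CD3 delta and with CD3 gamma, and the zeta chain, encoded by CD247, joins as a homodimer. Their tails carry immunoreceptor tyrosine-based activation motifs (ITAMs), which the kinase LCK phosphorylates and to which the kinase ZAP70 binds. CD3E, CD3D and CD3G lie side by side on the long arm of chromosome 11, with CD3D and CD3G transcribed away from each other, whereas CD247 lies alone on chromosome 1. The genes are switched on early in the T lineage.

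The lists do not share a length. They covered 34.3 Mb in 6T-CEM, 16.2 Mb in Jurkat replicate 1 and 27.6 Mb in Jurkat replicate 2, with mean peak widths of 974, 1003 and 861 bp. The files give peaks without read counts, and the depth behind them is unknown. With 1 library of 6T-CEM, no test between the lines was run. Whether the Jurkat libraries are separate cultures is not labelled, so their spread may be technical. The T-cell label was checked against lineage markers. Within 2 kb of the gene bodies, peaks lay at 11 of 11 T-lineage markers in 6T-CEM, 10 of 11 in Jurkat replicate 1, where CD7 had none, and 11 of 11 in Jurkat replicate 2, covering 135501, 82314 and 150722 bp; the 4 CD3 and zeta genes are among the 11. Of 6 B-lineage markers, 3, 2 and 3 held peaks, covering 9152, 3009 and 8263 bp, with PAX5, EBF1 and MS4A1 at 0 in each library. Myeloid markers held peaks at 2, 1 and 2 of 6 genes (4670, 731 and 3198 bp), NK markers at 3, 1 and 3 of 6 (3820, 623 and 3110 bp), and erythroid and megakaryocytic markers at 0 of 6 in each.

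The promoter sequences of CD3D and CD247 are shown, and a peak reached each of them in every library. RefSeq promoters of GRCh38, the same build as hg38, matched 2 of the 4 members; CD3E and CD3G had no entry. The runs below are the 250 bases before the annotated start of each gene, 5′ to 3′ on the minus strand, at chr11:118342706-118342955 for CD3D and chr1:167518530-167518779 for CD247. Capitals mark matches, on either strand, to the ETS core GGAA, to the RUNX cores TGTGGT and TGCGGT, to the E-box CANNTG, to TATAAA, and to the GATA forms AGATAA or AGATAG or TGATAA or TGATAG.
CD3D: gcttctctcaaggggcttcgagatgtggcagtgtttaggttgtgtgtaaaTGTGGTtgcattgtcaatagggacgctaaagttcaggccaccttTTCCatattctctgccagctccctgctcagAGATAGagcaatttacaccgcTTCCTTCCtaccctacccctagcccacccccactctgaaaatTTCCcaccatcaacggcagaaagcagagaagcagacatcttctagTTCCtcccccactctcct
CD247: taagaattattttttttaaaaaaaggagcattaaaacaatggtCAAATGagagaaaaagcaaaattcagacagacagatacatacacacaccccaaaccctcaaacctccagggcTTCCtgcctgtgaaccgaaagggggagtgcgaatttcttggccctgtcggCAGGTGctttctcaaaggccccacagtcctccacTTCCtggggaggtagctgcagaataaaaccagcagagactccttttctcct

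In the CD3D promoter, GGAA was matched 5 times, each on the opposite strand as TTCC, with neighbouring matches at −105 to −102 and −101 to −98, counted from the gene start. TGTGGT, the core bound by RUNX factors, occurred once, at −200 to −195. The only match to a GATA form, AGATAG, stood at −126 to −121. The CD247 promoter held 2 GGAA matches on the opposite strand and 2 E-boxes, CAAATG at −207 to −202 and CAGGTG at −85 to −80. No marked match overlapped another. Of 35116 promoter windows of this length, 92.7% held GGAA, 61.8% an E-box, 22.3% a GATA form, 10.98% TGTGGT, 5.84% TGCGGT and 10.7% TATAAA. These are matches of letters and not measured binding. GC content was 50.4% for CD3D and 45.6% for CD247, against a median of 58% over all windows. The CD3D window lay wholly under peaks in all 3 libraries. For CD247, 250 of 250 bases lay under a peak in 6T-CEM, 250 of 250 in Jurkat replicate 1 and 139 of 250 in Jurkat replicate 2.

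At the CD3 locus, 6T-CEM carried less acetylated sequence than either Jurkat library. The window, on chromosome 11 from 118254730 to 118405161 (hg38), held 7 peaks in 6T-CEM, 14 in replicate 1 of Jurkat and 16 in replicate 2 of Jurkat. They covered 9984 bp in 6T-CEM, 21402 bp in Jurkat replicate 1 and 17912 bp in Jurkat replicate 2, or 6.64%, 14.2% and 11.9% of the window. The 6T-CEM value lay below both Jurkat values. In bulk cells, fewer cells with the mark and less of the mark per cell cannot be told apart. Relative to the length of each list, the locus took 291 bp per Mb of covered sequence in 6T-CEM, 1321 bp in Jurkat replicate 1 and 648 bp in Jurkat replicate 2.

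**Figure D1:**
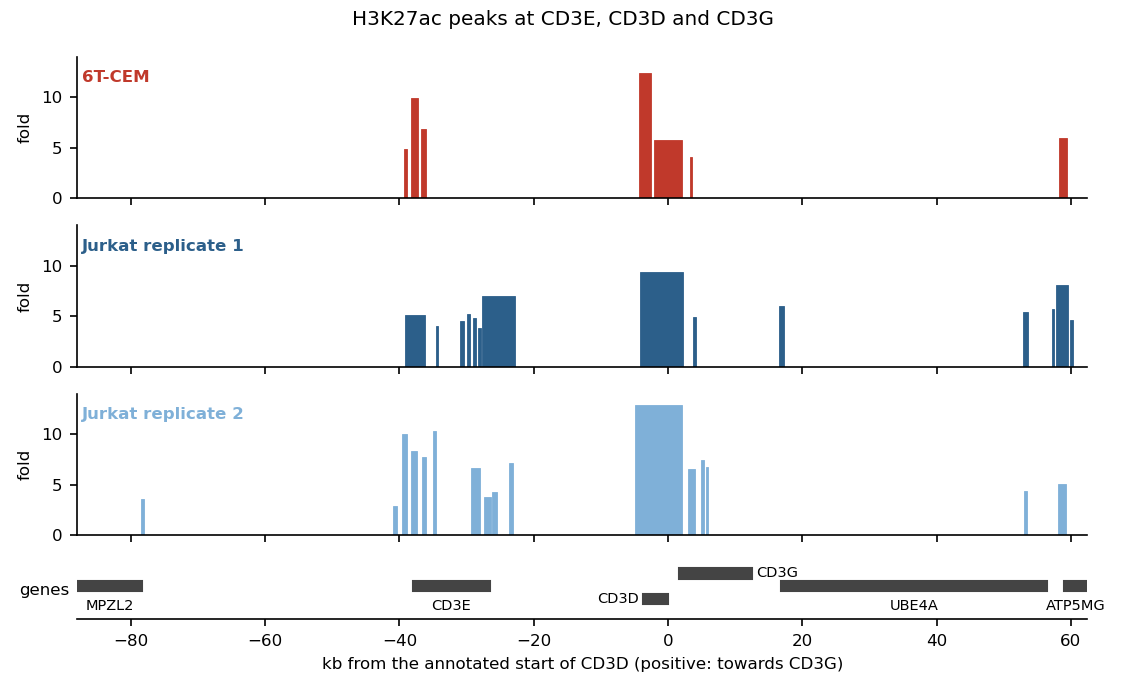
Peaks at CD3E, CD3D and CD3G in 6T-CEM (top) and both Jurkat libraries, with distance from the annotated start of CD3D in kb on the x axis; each box is 1 peak, as wide as the peak and as high as the fold enrichment given by the authors' peak caller, and the bottom row shows gene bodies. 6T-CEM has no peak in the 31.7 kb between the first part of CD3E and the far end of CD3D. The Jurkat libraries have 6 and 5 peaks wholly inside that stretch.

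The log2 ratio of covered bases, 6T-CEM over the Jurkat mean with 500 bp added to each, was −1.29 for the locus after centring on the median of 15637 protein-coding genes with covered bases in any library. Against single Jurkat libraries it was −1.64 (replicate 1) and −1.11 (replicate 2), and Jurkat replicate 1 over replicate 2 gave 0.42. A gene was called lower when the centred ratio was −1 or less and 6T-CEM lay below both Jurkat libraries. Taken singly, CD3E, CD3D and CD3G had ratios of −1.28, −1.26 and −1.27, but their windows hold nearly the same peaks, so the 3 calls are 1 observation. Of all genes, 8.03% were called lower and 15.3% lay below both Jurkat libraries. The call of the locus was lost without centring (−0.94) and with 100 kb on each side (−0.95), and that of CD3G alone also with 25 kb (−0.72).

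The difference was uneven along the locus. It was widest in the body of CD3E, whose epsilon chain pairs with both delta and gamma, and in the interval from CD3E to CD3D. In the CD3E body (chromosome 11, 118304730 to 118316173) 1493 bp lay under peaks in 6T-CEM, 5338 bp in Jurkat replicate 1 and 3964 bp in Jurkat replicate 2. The first 5 kb differed less, with 1493 bp in 6T-CEM, 2052 bp in Jurkat replicate 1 and 1723 bp in Jurkat replicate 2. The remaining part of the body held 0 bp in 6T-CEM, 3286 bp in Jurkat replicate 1 and 2241 bp in Jurkat replicate 2.

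Each library had a peak at the start of CD3E, taken as its lower end because the gene is known to be transcribed towards CD3D. In 6T-CEM this peak was 1074 bp wide with a fold of 9.96 and its summit 175 bp into the gene. Jurkat replicate 1 had a single peak of 2961 bp there with a fold of 5.17 and a summit at 202 bp, and Jurkat replicate 2 a peak of 1014 bp with a fold of 8.38 and a summit at 250 bp. Folds and −log10 q values are the authors' own and serve here to describe and rank peaks within a list. By −log10 q the start peak stood above 95.4% of the list in 6T-CEM, of 81.9% in replicate 1 of Jurkat and of 98.3% in replicate 2.

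Beyond the first part of CD3E the libraries parted. From 118306724 to 118338377, a stretch of 31654 bp that ends just inside the 3′ flank of CD3D, 6T-CEM had no peak. Jurkat replicate 1 had 6 peaks there over 7304 bp, with folds of 3.88 to 7.07. Jurkat replicate 2 had 5 peaks that lay wholly inside the stretch, with folds of 3.79 to 10.4. The edge of its peak over CD3D, which starts at 118337721, also entered the stretch. With that edge, 4817 bp were covered in Jurkat replicate 2. The Jurkat peaks fell in part in the same places. Peaks of both replicates overlapped at 118313389 to 118314841, inside CD3E, and at 118315010 to 118319879, across its 3′ end. At the 3′ end replicate 1 had 1 peak of 4870 bp (fold 7.07), wider than 99.3% of its list, and replicate 2 had 3 narrower peaks of 584 to 997 bp (folds 3.79 to 7.21). The interval from the end of CD3E to CD3D (22780 bp) held 576 bp in 6T-CEM, all next to CD3D, against 4105 bp in Jurkat replicate 1 and 2686 bp in Jurkat replicate 2. The 6T-CEM list is the longest of the 3. The lists hold no signal below the caller's threshold, so weak acetylation there was not detectable.

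CD3D and CD3G, which encode the delta and gamma chains, have starts 1639 bp apart and face away from each other. The 1638 bp between the gene bodies lay wholly under peaks in every library. The CD3D body (chromosome 11, 118338954 to 118342705) was covered over 3389 of 3752 bp in 6T-CEM, and over its full length in both Jurkat libraries. Here the lines were alike in covered length, but the peaks were divided differently.

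6T-CEM had 2 peaks with 363 bp between them. The one towards the 3′ end of CD3D, from 118338378 to 118340228, was 1851 bp wide, had a fold of 12.45 and stood above 96.0% of the list by −log10 q. Its summit lay 2780 bp inside CD3D, far from the gene start. The one over the shared promoter interval, from 118340592 to 118344841, was 4250 bp wide, had a fold of 5.75 and stood above 87.7% of the list, with its summit 44 bp inside CD3G. Jurkat replicate 1 had a single peak of 6453 bp from 118338555 to 118345007, with a fold of 9.39 and its summit 108 bp inside CD3D. Jurkat replicate 2 had a single peak of 7052 bp from 118337721 to 118344772, with a fold of 12.9 and its summit 391 bp inside CD3D. Both Jurkat peaks were wider than 99.7% and 99.8% of their lists, and stood above 96.9% and 99.4% of them by −log10 q.

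Within CD3G (chromosome 11, 118344344 to 118355161) peaks covered 809 bp in 6T-CEM, 1119 bp in Jurkat replicate 1 and 2279 bp in Jurkat replicate 2. Beyond the promoter, 6T-CEM had 1 peak of 311 bp with a fold of 4.15. Jurkat replicate 1 had 1 of 455 bp with a fold of 4.91, and Jurkat replicate 2 had 3, of 302 to 1074 bp. The Jurkat replicates differed more from each other here than 6T-CEM did from replicate 1.

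Windows of 2 kb around each gene separate CD3E from CD3D and CD3G better than the wide window. The windows of CD3D and CD3G still overlap. Both hold the 1638 bp between the genes, wholly under peaks in each library, so their values are not separate observations. For CD3E, 2341 bp were covered in 6T-CEM, 8559 bp in Jurkat replicate 1 and 5937 bp in Jurkat replicate 2, a centred log2 ratio of −1.67 that met the rule for lower. For CD3D, 5965 bp were covered in 6T-CEM, 6151 bp in Jurkat replicate 1 and 6985 bp in Jurkat replicate 2 (−0.35, not called). For CD3G the values were 2809 bp in 6T-CEM, 3119 bp in Jurkat replicate 1 and 4279 bp in Jurkat replicate 2 (−0.57, not called). So 1 of the 3 genes met the rule at this width, where 6.94% of all genes with covered bases did.

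Neighbours of the locus differed too. UBE4A, a ubiquitin ligase gene next to CD3G, had 344 bp under peaks in 6T-CEM, 2645 bp in Jurkat replicate 1 and 810 bp in Jurkat replicate 2, within 2 kb of its body. The UBE4A body itself held 0 bp in 6T-CEM, 1012 bp in Jurkat replicate 1 and 382 bp in Jurkat replicate 2. The 344 bp in 6T-CEM were the edge of the peak at ATP5MG and are counted for that gene too. MPZL2, an adhesion protein gene below CD3E, had 0, 355 and 394 bp in the same order. ATP5MG, a gene of the mitochondrial ATP synthase, had 1231 bp in 6T-CEM, between the 2781 bp of Jurkat replicate 1 and the 1185 bp of Jurkat replicate 2. At 2 kb on each side, UBE4A (−1.62) and MPZL2 (−1.03) also met the rule for lower, and ATP5MG (−0.74) did not. The call at this width was thus not particular to CD3E.

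Merging the peaks of the 3 libraries that share at least 1 base gave 18 regions at the CD3 locus. All 3 libraries had a peak in 4 of them, both Jurkat libraries but not 6T-CEM in 3, Jurkat replicate 1 alone in 6 and Jurkat replicate 2 alone in 5. No region was seen in 6T-CEM alone. Of the 7 with peaks of both Jurkat replicates, 3 lacked a 6T-CEM peak (42.9%), against 15.5% of such regions genome-wide. Of the 4 regions with a 6T-CEM peak, 0 lacked a Jurkat peak, against 47.8% genome-wide. The 3 regions without 6T-CEM were the 2 at CD3E described above and 1 at the far end of UBE4A. These are few regions, and 11 of the 18 were seen in a single Jurkat library. Genome-wide, of 49528 regions, 2672 were seen in Jurkat replicate 1 alone and 11838 in Jurkat replicate 2 alone. All 3 libraries had a peak in 8620 of them.

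At CD247, the zeta chain gene, acetylation was broad in every library, and its order between the lines was not that of the CD3 locus. Its window (chromosome 1, 167380640 to 167568529) held 39 peaks in 6T-CEM, 11 in replicate 1 of Jurkat and 29 in replicate 2 of Jurkat. They covered 36716 bp in 6T-CEM, 15088 bp in Jurkat replicate 1 and 27069 bp in Jurkat replicate 2, or 19.5%, 8.03% and 14.4% of the window. The 6T-CEM value lay above both Jurkat values, and the Jurkat values lay far apart. Per Mb of covered sequence the locus took 1072 bp in 6T-CEM, 931 bp in Jurkat replicate 1 and 980 bp in Jurkat replicate 2, a narrower range.

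**Figure D2:**
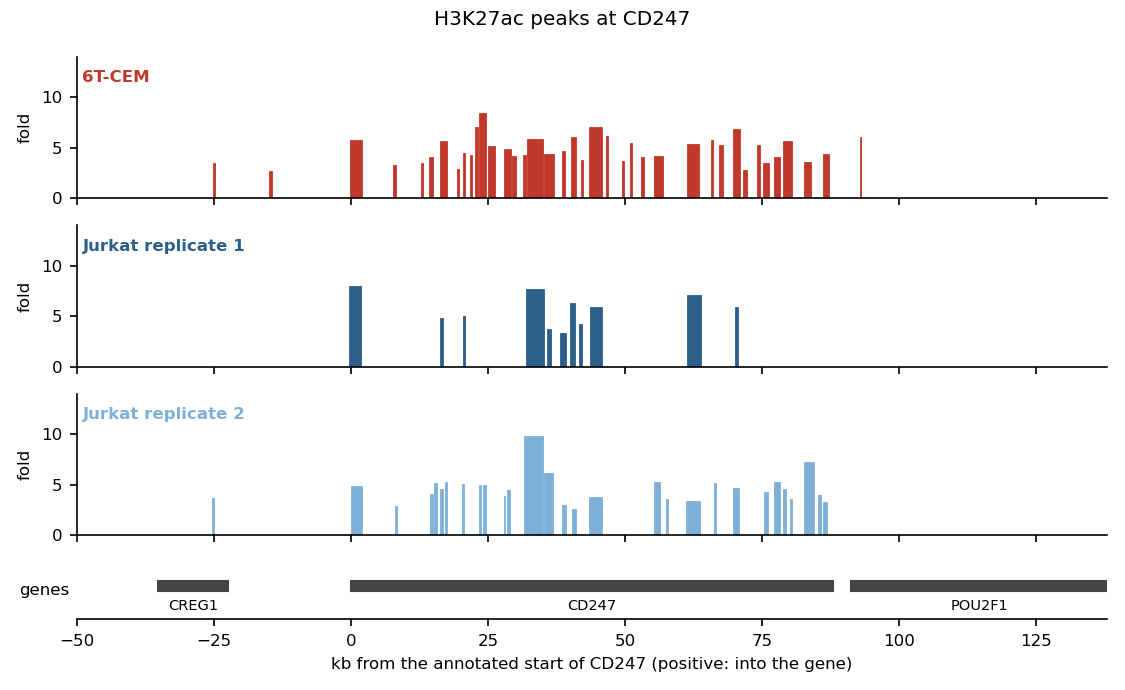
Peaks at CD247 in 6T-CEM (top) and both Jurkat libraries, with distance from the annotated start of CD247 in kb on the x axis; each box is 1 peak, as wide as the peak and as high as the fold enrichment given by the authors' peak caller, and the bottom row shows gene bodies. Of the peaks in the window, 36 of 39 in 6T-CEM, 11 of 11 in replicate 1 of Jurkat and 28 of 29 in replicate 2 of Jurkat touch the gene body.

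The centred log2 ratio for CD247 was 0.44, with 0.68 against Jurkat replicate 1 and 0.13 against Jurkat replicate 2. Jurkat replicate 1 over replicate 2 gave −0.65, a gap about as wide as that between 6T-CEM and replicate 1. CD247 was not called, where 14.4% of genes were called higher. It lay above both Jurkat libraries, as did 52.3% of all genes.

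Each part of the gene held peaks in every library, most sparsely in Jurkat replicate 1. There they covered 8.70% of the part with the gene start and 11.5% of the 3′ part, with long stretches between peaks. Of the 87890 bp of the body, 35361 bp (40.2%) lay under peaks in 6T-CEM, 14693 bp (16.7%) in Jurkat replicate 1 and 26612 bp (30.3%) in Jurkat replicate 2. Divided into 3 equal parts, the part with the gene start held 10507 bp in 6T-CEM, 2549 bp in Jurkat replicate 1 and 6460 bp in Jurkat replicate 2. The middle part held 13037 bp in 6T-CEM, 8779 bp in Jurkat replicate 1 and 10493 bp in Jurkat replicate 2. It had the most covered bases of the 3 parts in each library. The 3′ part held 11817 bp in 6T-CEM, 3365 bp in Jurkat replicate 1 and 9659 bp in Jurkat replicate 2. The 3′ flank held 327 bp in 6T-CEM but 0 bp in either Jurkat library, and the 5′ flank 1028 bp in 6T-CEM, 395 bp in Jurkat replicate 1 and 457 bp in Jurkat replicate 2. Nearly all covered bases thus lay in the gene. POU2F1, the gene of the transcription factor OCT1 beyond the 3′ end, had 3416 bp in 6T-CEM, 2040 bp in Jurkat replicate 1 and 1713 bp in Jurkat replicate 2 within 2 kb of its body. CREG1, on the other side, had 328 bp in 6T-CEM, 0 bp in Jurkat replicate 1 and 318 bp in Jurkat replicate 2.

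The promoter peak was found in each library. In 6T-CEM it ran from 167516582 to 167518787 with a fold of 5.84, in Jurkat replicate 1 from 167516824 to 167518924 with a fold of 8.02, and in Jurkat replicate 2 from 167516535 to 167518668 with a fold of 4.95. Its summit lay 890 bp inside the gene in 6T-CEM, 1111 bp in Jurkat replicate 1 and 917 bp in Jurkat replicate 2. By −log10 q it stood above 91.9%, 89.7% and 89.9% of the 3 lists.

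Beyond the promoter, the lines shared their main peaks but ranked them differently by −log10 q. In 6T-CEM the highest ran from 167472709 to 167475134 (fold 7.08), with its summit 45459 bp from the gene start. Jurkat replicate 1 had a peak there with a fold of 5.89 and Jurkat replicate 2 one with a fold of 3.81. In Jurkat replicate 2 the highest ran from 167483604 to 167487050 (fold 9.85), with its summit 34467 bp from the start, and stood above 98.7% of the list by −log10 q. Jurkat replicate 1 had its own at the same place, from 167483314 to 167486704 (fold 7.70). 6T-CEM also had a peak there, from 167483565 to 167486423, with a fold of 5.86.

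Merged peaks gave 41 regions at CD247. All 3 libraries had a peak in 9, 6T-CEM and Jurkat replicate 2 in 11, 6T-CEM and Jurkat replicate 1 in 1, 6T-CEM alone in 16 and Jurkat replicate 2 alone in 4. Of 49528 regions genome-wide, all 3 libraries had a peak in 8620, 6T-CEM and Jurkat replicate 2 in 7201 and 6T-CEM alone in 15966. Of the 9 with peaks of both Jurkat replicates, 0 lacked a 6T-CEM peak, against 15.5% genome-wide, and 9 regions are too few to read a difference from. Of the 37 regions with a 6T-CEM peak, 16 lacked a Jurkat peak (43.2%), which is near the 47.8% seen genome-wide. The 16 peaks were 294 to 1289 bp wide, with a median of 460.5 bp against 647 bp for the whole 6T-CEM list. Their folds were 2.72 to 7.07, and 14 of them lay in CD247.

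Compared per length over the 2 kb windows, the genes kept one feature in common: CD3D had the highest share of covered bases in every library. The share was 76.9% in 6T-CEM, 79.3% in replicate 1 of Jurkat and 90.1% in replicate 2 of Jurkat. CD3E had 15.2% in 6T-CEM, the lowest of the 4 genes, against 55.4% in Jurkat replicate 1 and 38.4% in Jurkat replicate 2, where it was second. CD3G had 19.0% in 6T-CEM, 21.05% in replicate 1 of Jurkat and 28.9% in replicate 2 of Jurkat. Its window overlaps that of CD3D, so the shares of CD3D and CD3G rest in part on the same bases. CD247 had 38.8% in 6T-CEM, 16.4% in replicate 1 of Jurkat and 29.1% in replicate 2 of Jurkat. The Jurkat ranges of CD3G and CD247 overlapped, so their order in Jurkat is not settled, and in 6T-CEM no spread is known.

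**Figure D3:**
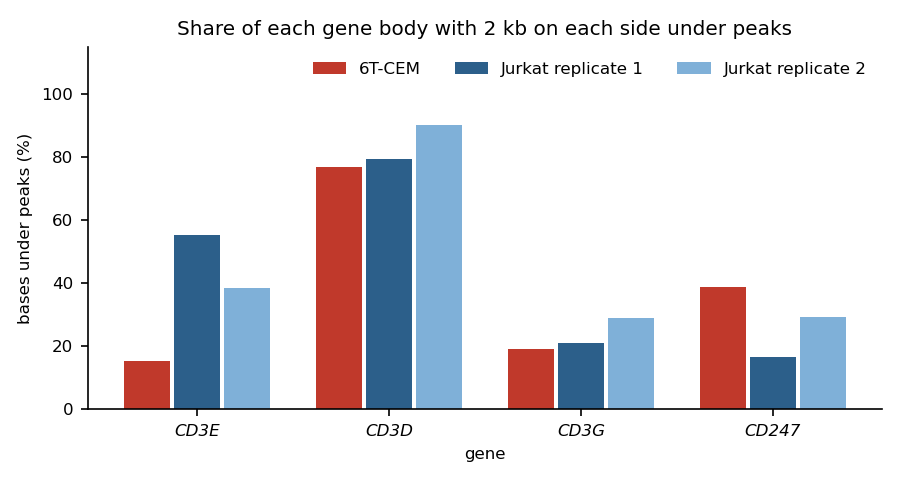
Share of each gene's body with 2 kb on each side that lies under H3K27ac peaks, in percent, for CD3E, CD3D, CD3G and CD247; each bar is 1 library, with 6T-CEM left of the Jurkat replicates and no error bars. CD3E stands at 15.2% in 6T-CEM against 55.4% and 38.4% in Jurkat, and CD3D is the highest of the 4 genes in every library.

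Stitching peaks across the gap customary in calling super-enhancers joined 37 peaks into a region of 93.3 kb at CD247 in 6T-CEM. In Jurkat replicate 1 the gene held 3 separate regions, of 29.5, 9.47 and 2.10 kb, and in Jurkat replicate 2 28 peaks made 1 region of 87.0 kb. At CD3E the stitched region spanned 3.34 kb in 6T-CEM, 16.4 kb in Jurkat replicate 1 and 17.8 kb in Jurkat replicate 2. At CD3D and CD3G it spanned 7.90 kb in 6T-CEM, 21.4 kb in Jurkat replicate 1 and 10.9 kb in Jurkat replicate 2. The 21.4 kb region of Jurkat replicate 1 takes in a peak at UBE4A. The 93.3 kb region of 6T-CEM takes in a peak at POU2F1. The spans depend on the gap. With 5 kb in its place, the regions of 6T-CEM at CD3E and at CD3D kept their spans, and CD247 held regions of 79.5 and 2.21 kb. In Jurkat replicate 1 the CD3E span also stayed, that at CD3D and CD3G was 8.28 kb, and CD247 held 5 regions of at most 13.9 kb. In Jurkat replicate 2 the CD3D span stayed, CD3E divided into 6.41 and 6.21 kb, and the longest regions of CD247 were 31.6 and 31.4 kb.

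The genes whose covered bases in the 3 libraries were most like those of the CD3 locus, by Euclidean distance on the log2 scale, were LOC128031832 (0.23), PTP4A2 (0.32) and MGAT4A (0.34). For CD247 they were SSH3 (0.11), NCLN (0.16) and SLC38A12 (0.17). PTP4A2 and LOC128031832 follow each other in the gene order, so their windows may share peaks and not be separate observations. The likeness rests on 3 libraries and says nothing of function.

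Of 36 other genes of T-cell receptor signalling, 2 were called lower in 6T-CEM (5.56%, against 8.03% of all genes) and 9 higher (25%, against 14.4%). Their median centred log2 ratio was 0.21, against 0 for all genes, and their median for Jurkat replicate 1 over replicate 2 was −0.35. Of the list, 2 of 36 genes lay below both Jurkat libraries, where 15.3% of all genes did, and 23 of 36 above both, where 52.3% did. CTLA4 had no covered bases. The genes called lower were CD2, an adhesion receptor, and THEMIS, a signalling protein of thymocytes. CD2 had 7922 bp in 6T-CEM, 15355 bp in Jurkat replicate 1 and 12776 bp in Jurkat replicate 2 (−1.14), and was not called without Jurkat replicate 1 (−0.96). THEMIS had 294 bp in 6T-CEM, 1035 bp in Jurkat replicate 1 and 1303 bp in Jurkat replicate 2 (−1.42). These were 1, 2 and 1 peaks in the same order, so the call of THEMIS rests on few bases.

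Of the genes called higher, UBASH3B had the most covered bases. UBASH3B, a phosphatase, had 66685 bp in 6T-CEM, 2910 bp in Jurkat replicate 1 and 8644 bp in Jurkat replicate 2 (3.07). PAG1, an adaptor that brings CSK to the membrane, had 16587 bp in 6T-CEM, 551 bp in Jurkat replicate 1 and 379 bp in Jurkat replicate 2 (3.80). SIT1, an inhibitory adaptor, had 23196 bp in 6T-CEM, 6520 bp in Jurkat replicate 1 and 9894 bp in Jurkat replicate 2 (1.099). CBLB, a ubiquitin ligase, had 1055 bp in 6T-CEM, all in 1 peak, while both Jurkat libraries had 0 bp.

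Each of these genes lay above both Jurkat libraries. FYN, a kinase of the same family as LCK, had 9957 bp in 6T-CEM, 1050 bp in Jurkat replicate 1 and 930 bp in Jurkat replicate 2 (2.47). TXK, a Tec-family kinase, had 3931 bp in 6T-CEM, while both Jurkat libraries had 0 bp. CD8A and CD8B, which encode the CD8 coreceptor, share most of their window, so they are not separate observations among the 9 called higher. CD8A had 11289 bp in 6T-CEM, 0 bp in Jurkat replicate 1 and 4858 bp in Jurkat replicate 2 (1.66). CD8B had 11289 bp in 6T-CEM, 0 bp in Jurkat replicate 1 and 5839 bp in Jurkat replicate 2 (1.44). Without Jurkat replicate 1, CD8A, CD8B and SIT1 were no longer called, at 0.84, 0.60 and 0.89. In that setting 7 genes of the list and 16.0% of all genes were called higher.

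LCK, the kinase that phosphorylates the ITAMs, was not called, with 22546 bp in 6T-CEM, 15014 bp in Jurkat replicate 1 and 22127 bp in Jurkat replicate 2. GRAP2, an adaptor, had 31172 bp in 6T-CEM, 18001 bp in Jurkat replicate 1 and 30913 bp in Jurkat replicate 2. PRKCQ, the kinase PKC theta, had 34406 bp in 6T-CEM, 15136 bp in Jurkat replicate 1 and 18895 bp in Jurkat replicate 2. With UBASH3B, they and LCK were among the 6 genes of the list with the most covered bases. PTPN6, the phosphatase SHP-1, had 25606 bp in 6T-CEM, 21687 bp in Jurkat replicate 1 and 29059 bp in Jurkat replicate 2. GRB2, an adaptor, had 23056 bp in 6T-CEM, 16004 bp in Jurkat replicate 1 and 23208 bp in Jurkat replicate 2. Neither was called.

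Without centring, 11 genes of the signalling list were called higher and 1 lower. Over all genes the split moved further. Without centring, 4.90% of all genes were lower and 22.7% higher, so 82.2% of calls were higher, against 64.1% with centring.

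**Figure D4:**
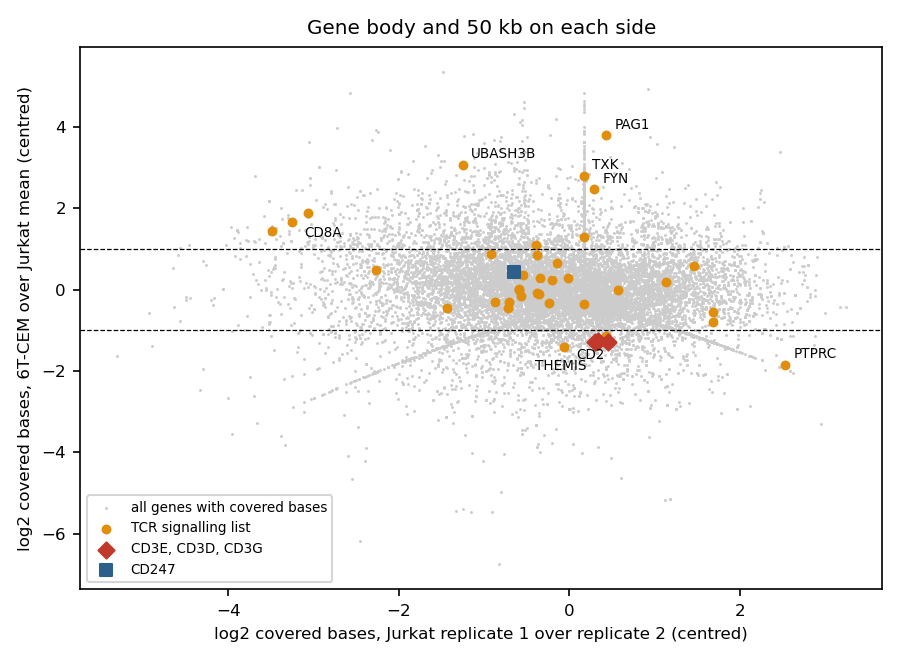
Centred log2 ratios of covered bases within 50 kb of each gene, with 6T-CEM over the Jurkat mean on the y axis and Jurkat replicate 1 over replicate 2 on the x axis; each point is 1 gene, and dashed lines mark the ratios of 1 and −1. CD3E, CD3D and CD3G lie below −1 at −1.28, −1.26 and −1.27 and CD247 lies between the lines at 0.44, while PTPRC, also past −1, was not called because 6T-CEM did not lie below both Jurkat libraries.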

How the data were processed

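H3K27ac peak lists of 1 6T-CEM and 2 Jurkat libraries were analysed. Per the submitters' processing notes, tools included Bowtie2 2.2.5 and MACS2 2.2.7, and the build was hg38; whether IgG entered the calling, and with which options, is not stated there. The deposited files are narrowPeak lists, 1 per library. They hold a score, a fold enrichment (ratio), −log10 p and q values and a summit offset, all as the authors' caller gave them. The lists hold no counts, so depth and precision are unknown.

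Only peaks on the autosomes and X were used. Gene bodies came from RefSeq (GRCh38.p14). Bases under peaks within 50 kb of each protein-coding gene were summed, and log2 ratios of 6T-CEM over the Jurkat mean, with 500 bp added, were centred on the median gene. A gene was called at a centred ratio of 1 or more, or −1 or less, with 6T-CEM outside both Jurkat values. No test was run, since 6T-CEM has 1 library. The counting was tested on simulated peaks. Alternatives changed the window, the q threshold, the bases added, weighting by fold, list length, overlap, stitching distance, centring and the Jurkat replicates used. Named genes were the members, their neighbours, the called genes of the signalling list with its 6 of most covered bases, and the 3 nearest genes by likeness. Of the called signalling genes, 1 is not reported here by name. The members and lists were chosen with earlier results of these data known. Python 3.11.15, NumPy 2.4.6 and pandas 2.3.3 were used.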

Additional observations from a re-analysis of the deposited data

How the results depend on the processing

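The CD3 locus kept its direction under all 10 alternatives, from −1.64 to −0.95 in log2 with centring, and fell short of −1 with 100 kb on each side (−0.95) and without centring (−0.94, chosen after seeing the data). Leaving out a Jurkat replicate gave −1.64 to −1.11. CD247 ranged from 0.13 to 0.68 with centring, stood at 0.79 without it, and was never called. The count of signalling genes called lower, 2, was 5 with lists of equal length, 0 with 2000 bp added, 1 with bases weighted by fold and 1 without centring. It was 1 without Jurkat replicate 1 and 5 without Jurkat replicate 2. The share of all genes called lower moved too. It was 8.03% in the main setting, 12.3% with equal length, 2.58% with 2000 bp added and 12.9% with bases weighted by fold. Without centring that share was 4.90%, without Jurkat replicate 1 14.6% and without Jurkat replicate 2 16.3%. Under these settings THEMIS was called in all but 2000 bp added, and CD2 only without Jurkat replicate 2. With 100 kb the count stayed at 2, but PTPRC took the place of CD2. The count called higher, 9, ranged from 7 without Jurkat replicate 1 to 12 with bases weighted by fold. Of all genes, 16.0% and 24.3% were called higher in those settings, against 14.4% in the main one. Regions of CD247 with peaks in all 3 libraries numbered 5, not 9, among peaks with a −log10 q of 5 or more. Without centring the median gene stood at 0.35. Of all calls, 52.4% were higher without Jurkat replicate 1, against 64.1%. The causes were not tested. No paired analysis was possible because 6T-CEM has 1 library and no test was run. Unknown depth limits every comparison of peak extent.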
